A study of Mus musculus with 31 samples.

Results

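Malat1, Neat1 and the U3 genes Rnu3b3 and Rnu3b4 make up 4 of the 485 genes in a table of RNA from T cells of the mouse choroid plexus, the epithelial lining of the ventricles where cerebrospinal fluid is made. All of them encode RNAs that stay in the nucleus and are not translated. They were chosen by values of these same libraries: Malat1 was selected on its difference between CD4+ and CD8+ T cells and between libraries with a different first number in the sample title, and Rnu3b4 was selected on its difference between housing conditions in CD4+ T cells. Neat1 was taken along as the neighbour of Malat1 and Rnu3b3 as another copy of U3. Values in those contrasts are therefore given as a description, without a test.

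Female C57BL6/J mice entered their housing at 4 weeks of age and stayed in it for 4 weeks. The enriched environment (EE) was a spacious cage furnished with wheels, toys and tunnels, and the standard environment (SE) was a smaller, bare one. T cells were sorted from the choroid plexus as CD45+ CD11b- CD3+ cells carrying CD4 or CD8, and 31 libraries were made from pools of 6 to 20 cells of 20 mice, with 9 libraries of CD4 EE, 8 of CD4 SE, 7 of CD8 EE and 7 of CD8 SE. The labels say that the mice analysed in an experiment from EE, and likewise those from SE, were cage mates, and the effect of the cage cannot be told apart from that of the environment. The first number in the sample titles is 1 in 19 libraries (6 CD4 EE, 5 CD4 SE, 3 CD8 EE and 5 CD8 SE) and 2 in 12 libraries (3, 3, 4 and 2), and the labels do not say what it stands for. The tissue was obtained in more than one set of experiments, and whether the number marks them is not given in the sources used here.

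Malat1 is an abundant long RNA found in nuclear speckles, the nuclear bodies that hold splicing factors. Neat1 lies beside it on the chromosome and is the scaffold on which paraspeckles, another kind of nuclear body, are built. U3 is a small nucleolar RNA of the box C/D family that pairs with the precursor of ribosomal RNA and is needed for the cleavages that release the RNA of the small ribosomal subunit.

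In the GRCm38 annotation (GENCODE M21) Malat1 is a lincRNA gene on the minus strand of chromosome 19 at 5795690 to 5802672, with a longest transcript of 6983 bases. Neat1 lies on the same strand at 5824708 to 5845478, with transcripts of 20771, 3004, 1030 and 711 bases, and 22035 bases separate both genes. Rnu3b3 lies on the plus strand of chromosome 11 at 87448627 to 87448841 and Rnu3b4 at 87462286 to 87462500, with 13444 bases between them. Rnu3b1 (87443237 to 87443451) and Rnu3b2 (87471368 to 87471582) flank them, and Rnu3a is on chromosome 10 at 40258467 to 40258679, but these 3 genes have no row in the table.

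The U3 sequences are shown because they decide how far the rows Rnu3b3 and Rnu3b4 can be read as separate genes. The capitals mark the letters TGATGA of box C and the last CTGA of box D, the motifs that name this family. Both RNAs are written from the 5′ end.
Rnu3b3: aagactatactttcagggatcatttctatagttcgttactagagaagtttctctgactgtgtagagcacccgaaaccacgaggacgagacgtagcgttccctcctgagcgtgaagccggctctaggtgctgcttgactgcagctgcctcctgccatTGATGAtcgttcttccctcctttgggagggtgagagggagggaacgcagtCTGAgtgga
Rnu3a: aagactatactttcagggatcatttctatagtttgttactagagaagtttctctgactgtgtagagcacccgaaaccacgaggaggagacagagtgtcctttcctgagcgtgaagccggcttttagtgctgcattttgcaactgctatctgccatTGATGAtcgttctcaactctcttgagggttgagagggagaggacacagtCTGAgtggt

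The 215-base transcripts of Rnu3b1, Rnu3b2, Rnu3b3 and Rnu3b4 had 1 distinct sequence, so the upper line holds for all 4 genes, and each gene also has an annotated transcript of 216 bases. Every one of the 166 runs of 50 bases in Rnu3b3, the shortest template that the authors kept, was also found in Rnu3b4, whereas 1 of them was found in Rnu3a. A read from within this transcript thus cannot be given to one of the copies by its sequence, and the rows Rnu3b3 and Rnu3b4 are uncertain as separate genes. Rnu3a, 213 bases long, shared 184 bases with Rnu3b3 in an alignment with 29 substitutions and 2 bases in gaps, which is 85.6% of the aligned columns. On the RNA strand, TGATGA occurred 1 time in Rnu3b3 and CTGA 3 times, and 25.2% of the 1507 snoRNA transcripts in the annotation held both sets of letters.

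The values are unique molecular identifiers (UMIs, a tag that lets each captured molecule be counted once), which the authors divided by one size factor per library, and are called normalised counts here. The table held 1910 to 26395 UMIs per library, with 1910 to 10089 in the libraries numbered 1 and 7657 to 26395 in those numbered 2, while the number of sorted cells was 9 to 20 and 6 to 15. Cd4 had UMIs in 16 of 17 CD4 libraries and 0 of 14 CD8 libraries. Cd8a had UMIs in 14 of 14 CD8 libraries and 0 of 17 CD4 libraries. The latter was fixed in advance, because the authors excluded CD4 samples with Cd8a or Cd8b transcripts, so it is no check of the cells. Markers of choroid plexus epithelium were present in every library, as the sum of Ttr (the transthyretin of cerebrospinal fluid) and Enpp2 ran from 74.9 to 312 normalised counts. The other 4 of the 6 epithelial markers and all 4 haemoglobin markers of erythrocytes have no row in the table. Of 7 myeloid markers only Cst3, which is also expressed outside myeloid cells, has a row, at 0 to 24.6.

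Malat1 was high in the CD4 libraries numbered 1 and low in all others. The 6 CD4 EE libraries numbered 1 held 249, 250.2, 215, 49.9, 187 and 196 normalised counts of Malat1. The 5 CD4 SE libraries numbered 1 held 185, 203, 202, 207 and 242. The CD4 libraries numbered 2 held 8.04, 4.79 and 4.10 in EE and 6.72, 2.78 and 5.48 in SE. The lowest library of the first kind therefore lay above the highest of the second, in both environments.

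In the CD8 libraries Malat1 was low under either number. Among libraries numbered 1, CD8 EE held 2.05, 3.46 and 1.96, CD8 SE held 2.15 and 1.76 in a pair of libraries, and the 3 remaining ones had no UMI of it. A count of 3 UMIs, taken as the floor of detection, would have been 1.74, 6.20 and 6.79 normalised counts in those 3 libraries, so in the last 2 of them a level like that of the other CD8 libraries numbered 1 was below the floor. Among libraries numbered 2, Malat1 was 4.61, 2.18, 1.96 and 8.23 in EE and 2.65 and 3.64 in SE. In 8 of 14 CD8 libraries the value rested on 3 UMIs or fewer.

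As means, Malat1 was at 199 ± 54.7 (SD, n = 11) in CD4 libraries numbered 1, 5.32 ± 1.88 (n = 6) in CD4 numbered 2, 1.42 ± 1.28 (n = 8) in CD8 numbered 1 and 3.88 ± 2.35 (n = 6) in CD8 numbered 2. Summed over libraries, 1533 UMIs of Malat1 made up 3.20% of the UMIs of the table in the first set, against 70 UMIs or 0.0842% in the CD4 libraries numbered 2. The ratio of these pooled shares was 38.0 (95% interval 29.9 to 49.0), and the ratio of CD4 to CD8 was 150 (72.8 to 374) for number 1 and 1.51 (1.04 to 2.22) for number 2. These intervals cover counting error only, and the ratio to CD8 for number 1 rests on 7 UMIs in CD8. Since each library is a pool, fewer cells with an RNA and less of it per cell cannot be told apart.

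**Figure D1:**
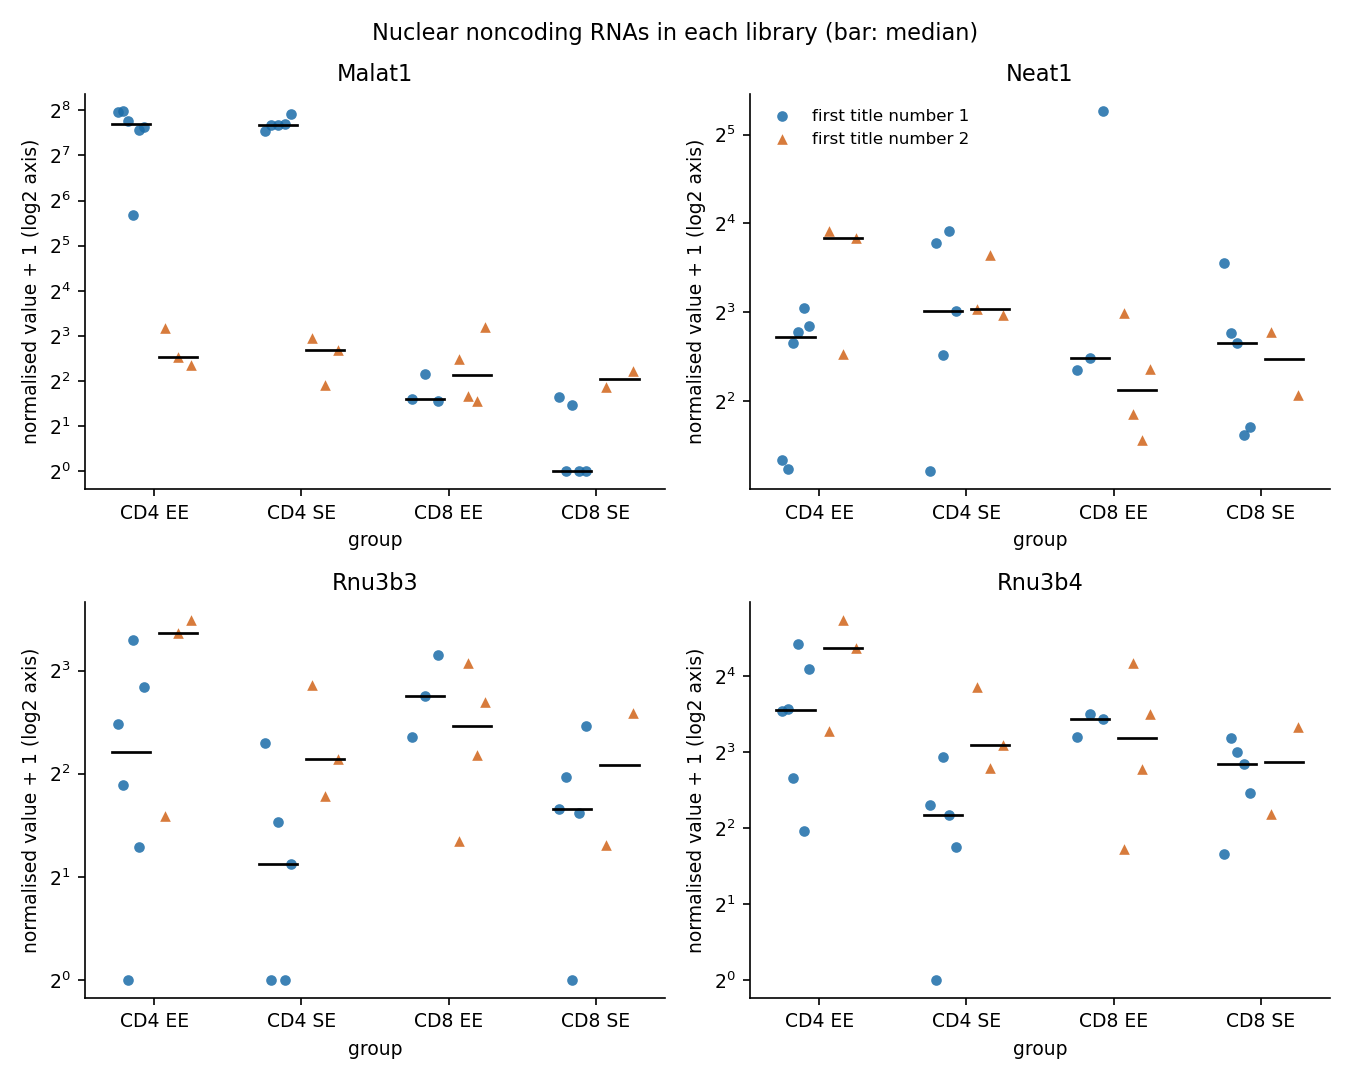
Normalised counts of Malat1, Neat1, Rnu3b3 and Rnu3b4 in each of the 31 libraries, by cell type, environment and first title number. Each library is 1 point on a log2(value + 1) axis, and the line is the median of each set. For Malat1 the 11 CD4 libraries numbered 1 sit at 49.9 to 250.2 and all other libraries at or below 8.23, while the other 3 genes overlap between the 4 sets of cell type and number.

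Of the 485 genes, Malat1 was the only one whose value in every CD4 library numbered 1 lay above that in every other library (0.206% of genes). Between the CD4 libraries of either number, 6 genes did not overlap (1.24%), namely Malat1, the mitochondrial ribosomal RNA mt.Rnr1, the glycolytic enzyme Aldoa and the actin-binding Pfn1 with number 1 above, and Rpl39 and Wdr89 with number 1 below. Between CD4 and CD8 numbered 1 there were 3 such genes (0.619%), with Malat1 above in CD4 and Ccl5 and Cd8a above in CD8. With number 2, 14 genes did not overlap between CD4 and CD8 (2.89%), and with CD8 cells 1 gene, mt.Co3, did not overlap between the numbers (0.206%). None of the nuclear RNAs was among these last genes. The authors' exclusion of CD4 samples with Cd8a or Cd8b transcripts kept these genes out of the CD4 libraries. The separation of Cd8a under either number, and of Cd8b1 under number 2, was therefore favoured in advance.

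CD4 EE replicate 5 stood apart within the high set, at 49.9 against 185 to 250.2 in the other 10 libraries. It was also the library with the fewest UMIs (1910), of which 17 were Malat1, or 0.890% (95% exact binomial interval 0.519 to 1.42). Without it the mean of the set was 214 ± 24.8 (n = 10), a coefficient of variation of 11.6%.

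In the same animals, Malat1 was higher in the CD4 than in the CD8 library in 7 of 7 mice numbered 1. In these mice the CD4 libraries held 49.9 to 242 normalised counts and the CD8 libraries 0 to 3.46, a difference of 4.06 to 7.93 on the log2(value + 1) scale. In the 3 mice numbered 2 it was higher in CD4 in 2, with log2 differences of -0.12 to 1.51. The CD4 libraries of these mice held 8.04, 4.79 and 2.78 normalised counts, and the CD8 libraries held 2.18 and 1.96 in the first pair of mice and 2.65 and 3.64 in the last, whose difference of -0.12 uses the mean of both. The last 2 libraries, CD8 SE replicates 5 and 6, have animal numbers 5 and 6 together in their column names, so which mouse they come from is uncertain. The mouse was taken from environment, first number and animal number in the titles.

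**Figure D2:**
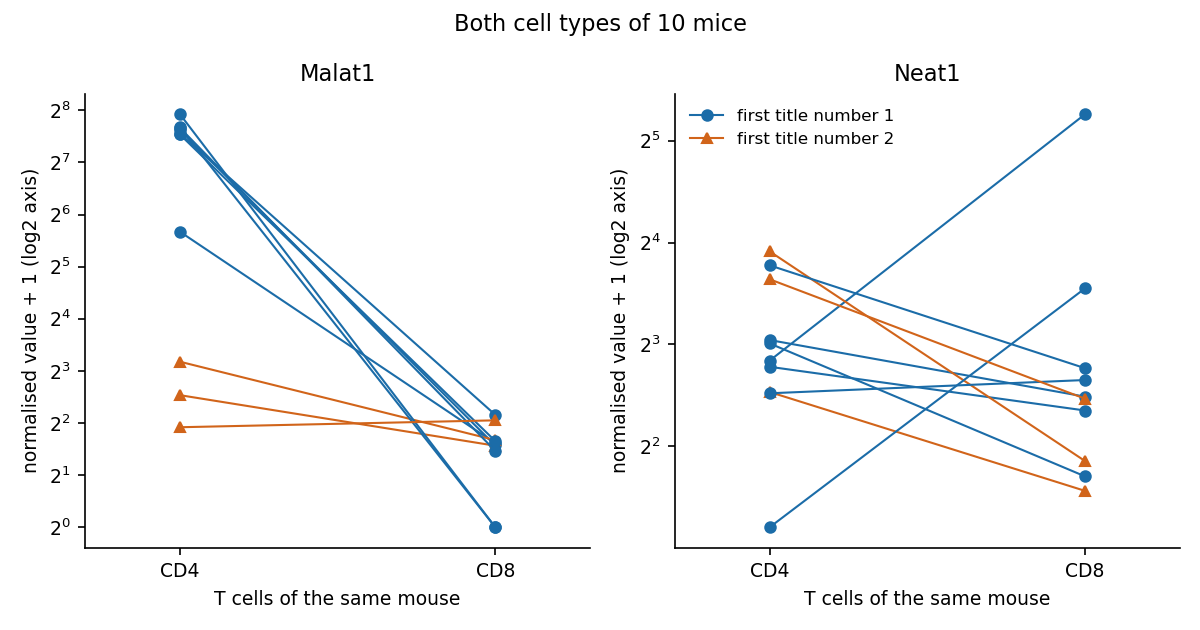
Normalised counts of Malat1 and Neat1 in CD4 and CD8 libraries of the 10 mice with both, on a log2(value + 1) axis. There is 1 line per mouse, coloured by first title number. Malat1 is lower in CD8 by 4.06 to 7.93 on this scale in the 7 mice numbered 1. It differs by -0.12 to 1.51 in the 3 mice numbered 2, and lines of Neat1 run in either direction.

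Fitted over all genes with limma on log2(normalised count + 1), on which scale the fold changes of low genes are understated, Malat1 differed between CD4 and CD8 by 4.26 (SE 0.58). The difference was 6.44 (SE 0.30) among libraries numbered 1 and 0.46 (SE 0.32) among those numbered 2. As background, 36 of 485 genes (7.42%) passed an adjusted p of 0.05 between CD4 and CD8, 21 higher and 15 lower in CD4, or 16 and 21 after rescaling the libraries to equal totals. Between the first numbers Malat1 was lower in number 2 by 4.95 (SE 0.26) within CD4 and higher by 0.89 (SE 0.49) within CD8. Here 52 of 485 genes passed over all libraries (10.7%), 25 of 483 within CD4 (5.18%) and 10 of 484 within CD8 (2.07%).

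**Figure D3:**
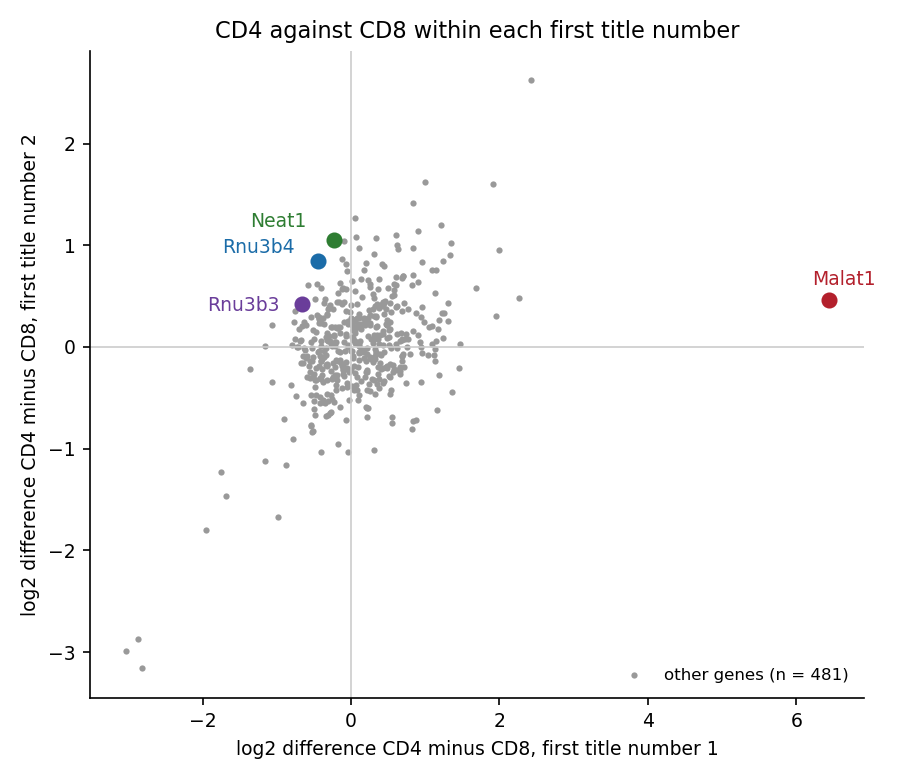
Difference between CD4 and CD8 on the log2(normalised count + 1) scale among libraries numbered 1 (horizontal axis) and among those numbered 2 (vertical axis), with 1 point per gene for 485 genes and the nuclear RNAs marked. Malat1 lies far to the right of all other genes at 6.44 and close to 0 vertically at 0.46, whereas genes such as Cd4 (2.43 and 2.62) and Cd8a (-2.82 and -3.16) lie near the diagonal. Cd8a was kept out of CD4 by the authors' exclusion of samples.

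The genes whose log2 values ran most like those of Malat1 over the 31 libraries were mt.Rnr1 (Pearson r = 0.76), the leukocyte tyrosine phosphatase gene Ptprc (r = 0.71) and the other mitochondrial ribosomal RNA mt.Rnr2 (r = 0.69). These were the highest of all genes by selection and share the split between sets, since within the 4 sets of cell type and number r lay between -0.44 and 0.68. mt.Rnr1 was at 18.5 to 64.5 normalised counts in CD4 numbered 1, 1.37 to 6.72 in CD4 numbered 2, 2.15 to 49.3 in CD8 numbered 1 and 2.06 to 6.65 in CD8 numbered 2. It overlapped between the cell types under number 1 through CD8 EE replicate 4, at 49.3, as the other 7 CD8 libraries numbered 1 held 2.15 to 8.27. Of 13 mitochondrial transcripts, 2 were higher in CD4 than in CD8 by the limma test (7.42% of all genes passed it), mt.Rnr1 by 1.40 (adjusted p = 0.0169) and mt.Rnr2 by 0.91 (adjusted p = 0.0092), and none was lower, with mt.Nd4 at -0.32 and mt.Nd4l at -0.31. Within the numbers mt.Rnr1 was at 1.95 and 0.31 and mt.Rnr2 at 1.26 and 0.33. Within CD4, 3 of the 13 were lower in number 2, mt.Rnr1 by 2.58 (limma, adjusted p = 9.78e-08), mt.Rnr2 by 0.97 (adjusted p = 0.0138) and the cytochrome b gene mt.Cytb by 0.77 (adjusted p = 0.0179), where 5.18% of all genes passed. Within CD8, where Malat1 was not lower in number 2, 4 of the 13 were lower against 2.07% of all genes passing, mt.Cytb by 1.10 and mt.Nd1 by 1.00 (limma, adjusted p = 0.0221 each) and mt.Co3 by 0.91 and mt.Co1 by 0.79 (adjusted p = 0.0493 each), and the median of the 13 was -0.79. There mt.Rnr1 was at -1.07 (limma adjusted p = 0.367). Over all libraries 5 of the 13 were lower, against 10.7% of all genes passing. mt.Rnr1 and mt.Rnr2 were named above for running like Malat1, which was itself selected on its differences between cell types and first numbers. That likeness favours low p-values in the same contrasts, so theirs are no independent test.

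Depth and epithelial RNA also differed between the sets in which Malat1 differed. The CD4 libraries numbered 1 held 1910 to 6900 UMIs and those numbered 2 held 8979 to 20140, without overlap, but the CD8 libraries numbered 1, at 2499 to 10089 UMIs, had low Malat1. The sum of Ttr and Enpp2 was 131 to 263 (median 177) in CD4 numbered 1, 76.4 to 200.2 (median 125) in CD4 numbered 2, 74.9 to 312 (median 103) in CD8 numbered 1 and 85.8 to 126 (median 99.2) in CD8 numbered 2. CD8 EE replicates 4 and 7 had the highest sums of all, 312 and 303, with Malat1 at 2.05 and 1.96. The part of depth and of epithelial RNA in the Malat1 values was not tested.

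Housing was a separate question, on which Malat1 had not been selected. In CD4 it ran from 4.10 to 250.2 (median 187) in EE and from 2.78 to 242 (median 193) in SE, and the ranges overlapped almost whole. The limma difference of EE minus SE was 0.086 (SE 0.90, adjusted p = 0.992). With the first number as a term it was -0.12 and its SE was 0.25 in place of 0.90, and within the numbers it was -0.28 (SE 0.30) and 0.17 (SE 0.42). In CD4, 0 of 483 genes (0%) passed an adjusted p of 0.05 in limma, 18 had an unadjusted p under 0.05, and edgeR and DESeq2 on the recovered UMIs called 1 gene each, which was none of the nuclear RNAs.

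In CD8 Malat1 was at 1.96 to 8.23 (median 2.18) in EE and 0 to 3.64 (median 1.76) in SE. The difference was 1.01 (SE 0.49), with an adjusted p of 0.950 in limma, and it was 1.15 (SE 0.85) in libraries numbered 1 and 0.19 (SE 0.49) in those numbered 2. In CD8, 0 of 484 genes (0%) passed in limma, edgeR or DESeq2, with 12, 12 and 6 at an unadjusted p under 0.05. The housing effect on Malat1 in CD4 minus that in CD8 was -0.92 (SE 1.16, limma adjusted p = 0.976). For this difference 0 of 485 genes (0%) passed in limma, edgeR or DESeq2, with 12, 9 and 8 at an unadjusted p under 0.05. p-values of this kind measure the spread between these libraries, and 10 of the mice gave libraries of both cell types.

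Neat1, the neighbour of Malat1, showed no such split between the sets. It had UMIs in all 31 libraries, at 1.31 to 37.3 normalised counts with a median of 5.81. Neat1 rested on 3 UMIs or fewer in 5 of 11 CD4 and 4 of 8 CD8 libraries numbered 1, and in 0 of 12 libraries numbered 2. In CD4 it was at 1.31 to 14.0 (median 5.87) under number 1 and 4.79 to 14.1 (median 9.33) under number 2. In CD8 it was at 2.07 to 37.3 (median 4.95) under number 1 and 1.96 to 6.92 (median 3.65) under number 2. All of these ranges overlapped.

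As means Neat1 was at 6.12 ± 4.22 (SD, n = 11) in CD4 numbered 1, 9.61 ± 3.84 (n = 6) in CD4 numbered 2, 9.02 ± 11.7 (n = 8) in CD8 numbered 1, or 4.98 ± 2.90 (n = 7) without CD8 EE replicate 7, and 4.11 ± 1.94 (n = 6) in CD8 numbered 2. The log2 difference of CD4 minus CD8 was 0.27 (SE 0.32), with -0.23 (SE 0.46) for number 1 and 1.05 (SE 0.32) for number 2, given without a test. In the same mice Neat1 was higher in CD4 in 4 of 7 animals numbered 1 and 3 of 3 numbered 2. Number 2 minus number 1 was 0.73 (SE 0.40) in CD4 and -0.66 (SE 0.48) in CD8, the latter being -0.13 (SE 0.43) without CD8 EE replicate 7.

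The highest Neat1 value, 37.3 in CD8 EE replicate 7, stood apart from the other CD8 EE libraries at 1.96 to 6.92. It rested on 19 UMIs, 0.597% of that library (95% exact binomial interval 0.360 to 0.931). The same library had Ttr at 236 and Enpp2 at 66.8 normalised counts. CD8 EE replicate 4 had them at 240.2 and 71.9 with Neat1 at 4.11, so high epithelial markers came with high Neat1 in 1 of these 2 libraries. The part of epithelial RNA in the value was not tested.

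Neat1 was at 1.35 to 14.1 (median 5.87) in CD4 EE and 1.31 to 14.0 (median 7.13) in CD4 SE, a limma difference of -0.32 (SE 0.41, adjusted p = 0.992). Within the numbers it was -0.57 and 0.21. In CD8 it was at 1.96 to 37.3 (median 4.12) in EE and 2.07 to 10.7 (median 5.28) in SE, a difference of 0.25 (SE 0.46, limma adjusted p = 0.991). This turned to -0.18 without CD8 EE replicate 7, and it was 0.91 and -0.23 within the numbers. The housing effect in CD4 minus that in CD8 was -0.57 (SE 0.64, limma adjusted p = 0.976).

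**Figure D4:**
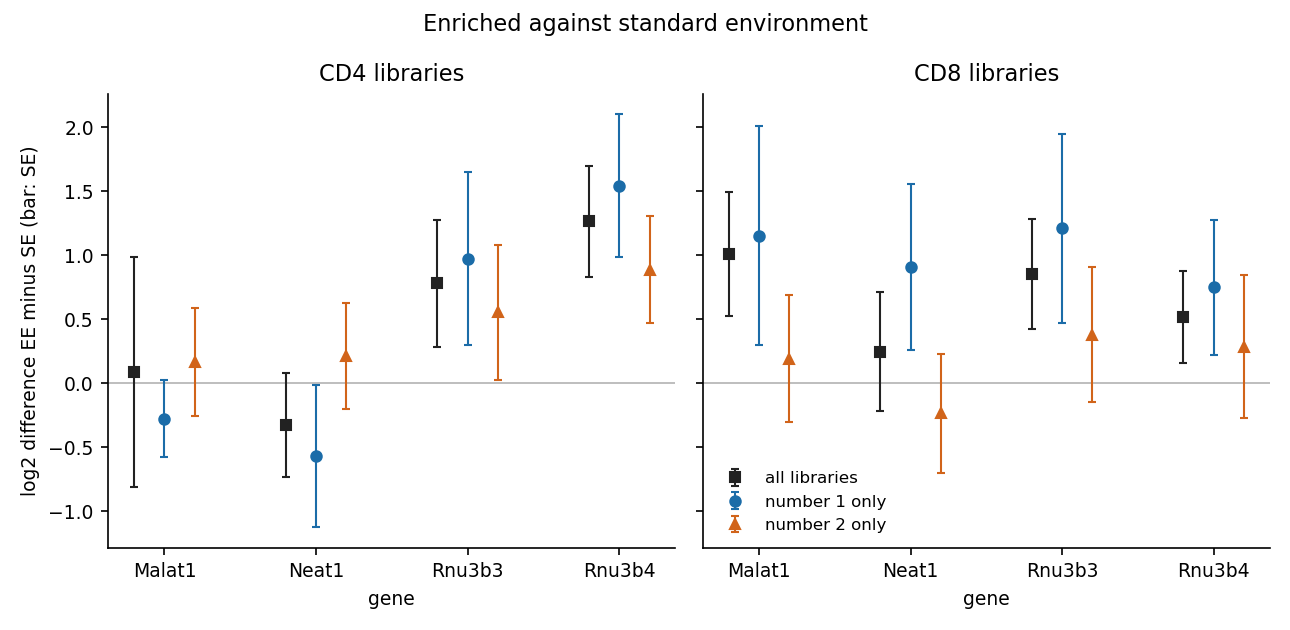
Difference of EE minus SE on the log2(normalised count + 1) scale for Malat1, Neat1, Rnu3b3 and Rnu3b4 in CD4 and CD8 libraries, pooled and within each first title number, with bars for 1 standard error. Rnu3b4 in CD4 lies at 1.27 pooled and at 1.54 and 0.89 within the numbers, and Malat1 and Neat1 in CD4 lie on either side of 0.

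The correlation of Malat1 with Neat1 passed no test within the sets. Within CD4 numbered 1, CD4 numbered 2, CD8 numbered 1 and CD8 numbered 2 the Pearson r of their log2 values was -0.15 (n = 11), -0.070 (n = 6), 0.48 (n = 8) and 0.47 (n = 6), with permutation p adjusted over these 4 sets of 0.806, 0.886, 0.697 and 0.697. Spearman rho was -0.11, 0.14, 0.37 and 0.71, with unadjusted permutation p of 0.754, 0.803, 0.379 and 0.136. Without the 2 libraries farthest from the median of Malat1, r was -0.12, -0.44, 0.39 and 0.57. In CD8 numbered 1, Malat1 rested on 3 UMIs or fewer in 8 of 8 libraries and Neat1 in 4 of 8, which limits r there. A pooled r is not given because Malat1 fell into separate sets of libraries. The genes most like Neat1 over all libraries were Gramd3 (r = 0.48), Ucp2, an uncoupling protein of mitochondria (r = 0.48), and Eif4a3 of the exon junction complex (r = 0.44), all chosen as the highest. Within the 4 sets their r lay between -0.21 and 0.74.

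The U3 rows were low and close together. Over all libraries Rnu3b4 had 452 UMIs and Rnu3b3 had 198, so that Rnu3b4 took 69.5% of both (95% exact binomial interval 65.8 to 73.1). The share was 70.6% in libraries numbered 1 and 69.3% in those numbered 2. By group it was 71.6% in CD4 EE, 69.3% in CD4 SE, 66.8% in CD8 EE and 69.1% in CD8 SE. Across the 30 libraries with a U3 UMI the chi-square of this split was 12.1 on 29 degrees of freedom, less spread than binomial sampling around a common share gives on average. Both rows carry the same RNA sequence, and how the counting divided the reads is not given in the sources used here.

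**Figure D5:**
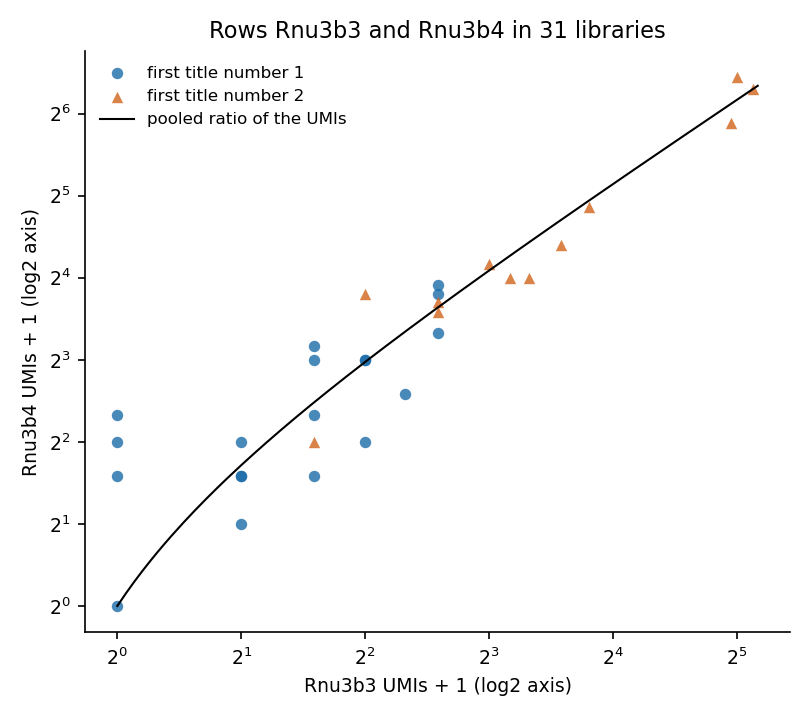
Recovered UMIs of Rnu3b4 (vertical) against Rnu3b3 (horizontal) in the 31 libraries on log2(UMIs + 1) axes, coloured by first title number. The line marks the pooled share of 69.5% Rnu3b4. The libraries scatter around the line, from 0 UMIs for both rows in CD4 SE replicate 2. The highest counts are 86 UMIs of Rnu3b4 in CD4 EE replicate 6 and 34 of Rnu3b3 in CD8 EE replicate 2.

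The log2 values of the 2 rows correlated across libraries with r = 0.75 and Spearman rho = 0.81 (n = 31, permutation p = 1e-05 each, the smallest that the resamples can give). Without the 2 libraries farthest from the median of Rnu3b3, r was 0.73. It was 0.66 (p = 0.00184, permutation test) among the 19 libraries numbered 1 and 0.93 (p = 2e-05, permutation test) among the 12 numbered 2. Because reads of the 2 rows cannot be told apart by sequence, these p-values do not test whether separate genes vary together. Among the genes most like Rnu3b4 after Rnu3b3 was the ribosomal protein gene Rps14 (r = 0.55), chosen among the highest. Within the 4 sets of cell type and number its r lay between -0.72 and 0.71. Those most like Rnu3b3 after Rnu3b4 were S100a11 (r = 0.65) and Wdr89 (r = 0.55), chosen in the same way. Within the sets r lay between 0.098 and 0.80 for S100a11 and between -0.088 and 0.75 for Wdr89.

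In CD4 cells, where Rnu3b4 had been selected on its housing difference, the 9 EE libraries ran from 2.90 to 25.7 normalised counts of it with a median of 10.8. The 8 SE libraries ran from 0 to 13.4 with a median of 4.92. Rnu3b3 ran from 0 to 10.2 (median 4.57) in EE and from 0 to 6.24 (median 2.16) in SE. EE had the higher median in both rows, and the ranges overlapped. CD4 SE replicate 2, the library without a U3 UMI, would have shown 3 UMIs as 7.62 normalised counts.

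As means, Rnu3b4 was at 13.4 ± 7.61 (SD, n = 9) in CD4 EE and 5.41 ± 4.06 (n = 8) in CD4 SE, a log2 difference of 1.27 (SE 0.43). Within the numbers it was 1.54 (SE 0.56) and 0.89 (SE 0.42). Under number 1, Rnu3b4 rested on 3 UMIs or fewer in 2 of 6 CD4 EE libraries and 4 of 5 CD4 SE libraries. Over both numbers, Rnu3b3 was at 5.03 ± 3.77 in CD4 EE and 2.39 ± 2.12 in CD4 SE, a log2 difference of 0.78 (SE 0.50). With both rows added, U3 was at 18.4 ± 11.2 and 7.80 ± 5.97. The rows are not independent of each other, so the second is no separate sign of the first.

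The CD8 libraries gave the housing contrast in libraries that had not been used to select U3. Their animals were largely not new, since 10 mice gave libraries of both cell types, so this contrast is not independent of that in CD4. Rnu3b4 was at 2.31 to 17.0 (median 9.82) in CD8 EE and 2.15 to 9.10 (median 6.20) in CD8 SE. The means were 9.13 ± 4.54 (n = 7) and 5.81 ± 2.52 (n = 7), and the difference was 0.52 (SE 0.36) with a limma adjusted p of 0.951. Rnu3b3 was at 5.10 ± 2.23 and 2.59 ± 1.74, a difference of 0.85 (SE 0.43, limma adjusted p = 0.950). Both rows, which carry the same sequence, were higher on average in EE, as in CD4, and neither passed the test.

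Within the numbers the CD8 difference was 0.75 and 0.29 for Rnu3b4 and 1.21 and 0.38 for Rnu3b3. With both rows added it was 0.63 (SE 0.33, limma adjusted p = 0.948). The housing effect in CD4 minus that in CD8 was 0.75 (SE 0.60) for Rnu3b4 and -0.070 (SE 0.67) for Rnu3b3, given without a test because the CD4 contrast had been used for the selection.

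Between the cell types the U3 rows did not pass the test. Rnu3b4 was at 0 to 25.7 normalised counts (median 7.53) in the 17 CD4 libraries and 2.15 to 17.0 (median 7.59) in the 14 CD8 libraries, a log2 difference of 0.075 (SE 0.30, limma adjusted p = 0.924). Rnu3b3 was at 0 to 10.2 (median 2.71) in CD4 and 0 to 7.86 (median 3.81) in CD8, a difference of -0.22 (SE 0.33, limma adjusted p = 0.742). Within the numbers the sign differed, with -0.45 and 0.84 for Rnu3b4 and -0.65 and 0.42 for Rnu3b3. Number 2 minus number 1 was 1.08 (SE 0.41) in CD4 and -0.13 (SE 0.38) in CD8 for Rnu3b4, and 1.05 (SE 0.49) and -0.050 (SE 0.46) for Rnu3b3, in the opposite direction to Malat1 in CD4. In CD4, Rnu3b3 rested on 3 UMIs or fewer in 10 of 11 libraries numbered 1 and 1 of 6 numbered 2, and Rnu3b4 in 6 of 11 and 0 of 6. In CD8 this held in 5 of 8 and 1 of 6 for Rnu3b3, and in 3 of 8 and 1 of 6 for Rnu3b4. Values of number 1 are thus often near the floor.

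Proteins of the nuclear bodies were measured in part. Of 46 genes for speckle and paraspeckle proteins, 11 have a row in the table. Between CD4 and CD8, 1 of the 11 passed the limma test, the splicing factor Srsf5, higher in CD4 by 0.83 (adjusted p = 0.0490), a share near the 7.42% of all genes. Srrm2, a core protein of speckles, was at 0.95 (adjusted p = 0.0511), and the lowest were the RNA-binding proteins Hnrnpa2b1 at 0.33 and Ewsr1 at 0.19. The Srsf5 call was lost in the 21 libraries of mice with both cell types (0.87, limma adjusted p = 0.0963), also with the mouse as a block (0.85, limma adjusted p = 0.0906), and within libraries numbered 1 (1.18, limma adjusted p = 0.0852) or 2 (0.27, limma adjusted p = 0.705), and it held in 8 of 31 fits that left out 1 library. The median of the 11 was 0.53, against 0.072 for all genes tested, and all 11 values were above 0. Among libraries numbered 1 the median was 0.91 with 11 values above 0, and among those numbered 2 it was 0.12 with 9 above 0. This difference between the numbers was not tested.

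Between the numbers within CD4, 1 of these 11 passed in limma, against 5.18% of all genes, namely Rbm39, lower in number 2 by 1.01 (adjusted p = 0.0435), with an adjusted p of 0.0561 after rescaling the libraries to equal totals. Next came Hnrnpf at -0.68, and the highest were Hnrnpk at 0.12 and Sf3b1 at 0.11. The median was -0.59, against 0.0072 for all genes. Over all libraries 1 passed, the speckle protein gene Son, lower in number 2 by 0.59 (limma adjusted p = 0.0182), against 10.7% of all genes. Within CD8 0 of the 11 passed, with a median of 0.16 against 0.087 for all genes.

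For housing 0 of the 11 passed in either cell type. In CD4 the values ran from -0.79 for Srsf7 and -0.64 for Srrm2 to 0.15 for Son and 0.48 for Hnrnpa2b1, with a median of -0.13 against -0.036 for all genes. In CD8 they ran from -0.52 for Son and -0.47 for Ewsr1 to 0.50 for Hnrnpk and 0.68 for Srsf5, with a median of 0.34 against 0.042.

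Of 36 genes for proteins that bind U3 or work in small-subunit processing, only Npm1, which encodes the nucleolar protein nucleophosmin, has a row. It was at 0.77 (SE 0.38) for EE minus SE in CD4 (limma adjusted p = 0.992), 0.18 in CD8 and -0.32 for CD4 minus CD8. Gas5, a host gene of box C/D snoRNAs and the only other noncoding RNA of the list with a row, was at -0.037 and 0.52 (limma adjusted p = 0.992 and 0.950) for housing and -0.00022 between the cell types. Number 2 minus number 1 in CD4 was -0.59 for Npm1 and -0.15 for Gas5.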

How the data were processed

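T cell pools were lysed directly and the cDNA carried UMIs. The authors trimmed reads with cutadapt, mapped them to mm10 with STAR 2.4.0a, used Drop-seq tools with the GRCm38 annotation of Ensembl to count UMIs, excluded CD4 samples with Cd8a or Cd8b transcripts and removed genes of low abundance. The deposited table is a signal, UMI counts that the authors divided by one DESeq2 size factor per library, for a subset of genes, so its totals are not full depth. The reverse transcription primer is not given in the sources used here.

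UMI counts were recovered as whole multiples of a step in each column (in 27 columns the smallest value, in 4 a part of it), and 100% of values came out whole within 0.001. All 31 columns were matched to samples by name. Same-group libraries formed 106 pairs, whose counts differed by a chi-square of 1.24 to 4.49 per degree of freedom, and none agreed within sampling noise. CD8 SE replicates 5 and 6, whose column names carry animal numbers 5 and 6 together, were separate libraries in the fits, but 1 identity in the mouse block and a mean in the mouse pairs.

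limma 3.58.1 (trend, R 4.3.3) was run on log2(normalised count + 1), with two-sided p-values adjusted by Benjamini and Hochberg over every gene detected among the libraries compared (threshold 0.05). EE was compared with SE within each cell type, CD4 with CD8 with environment as a term, and the first number with group as a term. edgeR 4.0.16 (quasi-likelihood) and DESeq2 1.42.0 on the recovered counts were alternatives, as were another pseudocount (0.5 and 4), scaling, a filter, each number alone, a mouse block and leaving out each library. The fit of the numbers in CD8 without CD8 EE replicate 7 was chosen after seeing the data. The fits were tested on simulated data. Permutation tests used 100000 resamples where exact enumeration was too large. Ratios of pooled shares have exact 95% intervals.

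The members and gene lists were chosen with earlier results of these data known. Named genes were the 4 nuclear RNAs, the 3 genes with the highest Pearson r to each, and of each list every measured gene up to 5, otherwise the 2 highest and 2 lowest differences. One gene that this rule names is not reported here. Genes that passed a test or did not overlap between sets were named beside their counts after their values were seen.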

Additional observations from a re-analysis of the deposited data

Results flagged for a closer look

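Of 16 sets of group and gene, 2 had a library far from the others by Dixon's test at the 95% level, which by chance marks about 1 in 20. Neat1 in CD8 EE replicate 7 was 37.3 normalised counts, against 1.96 to 6.92 in the other 6 libraries of the group. Malat1 in CD8 EE replicate 6 was 8.23 normalised counts, on 12 UMIs, against 1.96 to 4.61 in the other libraries of the group, and was still below the lowest CD4 library numbered 1 at 49.9.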

How the results depend on the processing

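The number of genes called between CD4 and CD8 was 36 in the main fit and moved to 55 with DESeq2, 14 with a mean value of 5 or more, and 20 within each first number alone. It was 23 with the mouse as a replicate block (10 mice, 21 libraries) and 20 in the same libraries without the block, and leaving out 1 library gave 24 (without CD4 SE replicate 4) to 44 (without CD4 EE replicate 5). Averaging CD8 SE replicates 5 and 6 into 1 library gave 26. For EE against SE, 1 gene was called in CD4 with DESeq2, edgeR or a pseudocount of 4, and 1 in CD8 with number 1 alone, where the main fit called 0. The cause of these changes was not tested, except that fewer genes or samples entered the filtered and split fits.

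Directions reversed for Malat1 in CD4 housing (-0.12 with number as a covariate, -0.28 in number 1, -0.46 to 0.52 leaving out 1 library), for Neat1 in CD4 housing (0.21 in number 2), in CD8 housing (-0.23 in number 2, -0.18 to 0.43 leaving out 1 library) and in the interaction (0.45 in number 2). Between CD4 and CD8, Rnu3b3 reversed to 0.10 with edgeR, 0.11 with DESeq2 and 0.42 in number 2. Rnu3b4 reversed to -0.45 in number 1, -0.18 with the mouse as a replicate block, -0.22 in those libraries without it and -0.061 to 0.25 leaving out 1 library. The sum of both U3 rows, fitted in their place, was at -0.080. None of these tested values passed the threshold before or after. Of the values given without a test, Neat1 between CD4 and CD8 was -0.23 in number 1 against 0.27, and Rnu3b3 in the interaction, at -0.070, was 0.11 with number as a covariate, 0.18 in number 2, 0.041 with DESeq2, 0.0026 with edgeR and -0.28 to 0.21 leaving out 1 library. Malat1 between CD4 and CD8, also without a test, was 4.40 (SE 0.60) with the replicate block and 4.51 in the same libraries without it, and the block changed no call on the U3 rows. Malat1 and Rnu3b3 gave no value where the filter removed them. Malat1 in CD8 rested on 3 UMIs or fewer in 8 of 14 libraries. Over all 31 libraries this held for Rnu3b3 in 17, Rnu3b4 in 10 and Neat1 in 9, all of the last numbered 1, which limits these values.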
